A study of Mus musculus with 18 samples.

Results

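Ccl2, Ccl7, Ccl8 and Ccl12 encode the monocyte chemoattractant group of CC chemokines, secreted proteins that draw monocytes and other leukocytes towards a site of infection. They were followed here in mouse dendritic cells exposed to lipopolysaccharide (LPS). The members were the probe sets annotated to exactly 1 of these genes. That gave 4 probe sets, 1 per gene, among 12394 genes on the array, so no second probe set of any member could be used as a check. Their NCBI gene IDs are 20296 (Ccl2), 20306 (Ccl7), 20307 (Ccl8) and 20293 (Ccl12).

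CCL2, CCL7 and, in the mouse, CCL12 bind the receptor CCR2, through which monocytes leave the marrow and enter inflamed tissue, while CCL7 also binds CCR1 and mouse CCL8 acts on CCR8. Myeloid cells make these chemokines after LPS, the bacterial product that CD14 at the cell surface hands on to the receptor TLR4. TLR4 feeds the NF-kB pathway and, from inside the cell and with CD14, the adaptor TRIF, the factor IRF3 and interferon beta. In dendritic cells CD14 is also known to set off an influx of calcium that activates the transcription factor NFAT.

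The series compared 3 conditions. Cd14-deficient cells came from Cd14-/- mice on the C57BL/6 background. EGTA cells were C57BL/6 wild type cells given LPS together with 2 mM EGTA, a chelator that takes up calcium outside the cell. Wild type cells were C57BL/6 cells given LPS alone, so that neither allele nor chelator was present. All mice were 6 to 8 weeks old, and all cells were grown from marrow with GM-CSF from the supernatant of transduced B16 tumour cells until over 90% carried CD11c, which leaves room for other marrow-derived cells. The LPS concentration was 1 µg/ml in the EGTA and wild type protocols, and the Cd14-deficient protocols do not give one. Each condition had 1 array without LPS, harvested 24 h after plating, and 1 array at each of 2, 4, 6, 12 and 24 h of LPS, 18 arrays in all. The protocol of the EGTA array without LPS names plating but not EGTA. The stated aim was to tell effects of blocked NFAT activation apart from other effects of losing CD14 or calcium.

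With 1 array per condition and time, the 5 LPS times stood in for replicates of a condition difference, and the 3 conditions for those of an LPS effect. The p-values below thus measure how evenly a difference held over times or conditions, together with array noise that may be technical only. The labels do not say that arrays came from separate cultures or animals, so spread between these may not be covered. Levels are quantile-normalised log2 intensities, a scale on which 1 unit is a doubling. Cd14 itself lay at 4.28 to 5.83 on the 6 Cd14-deficient arrays and at 12.49 to 13.28 on the other 12, which fits the labels. The EGTA array without LPS stood apart, with a 1st percentile of intensity of 3.63 against 0.645 to 0.939 on all other arrays and the lowest median correlation with the rest (0.933). RNA integrity (RIN) was 8.8 and 8.7 on the EGTA arrays at 12 and 24 h and 9.3 to 10 on all others.

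Ccl2, the prototype ligand of CCR2, was high before LPS and higher on every LPS array of its condition. In Cd14-deficient cells its log2 level was 10.06 without LPS and 11.56, 11.90, 12.45, 12.08 and 11.93 at 2, 4, 6, 12 and 24 h. In EGTA cells it was 10.80 without LPS and 12.41, 12.44, 12.47, 11.37 and 11.34 at the same times. In wild type cells it was 11.05 without LPS and 12.84, 13.25, 13.35, 13.17 and 13.06. The 5 wild type LPS arrays were thus all above the 10 LPS arrays of the other conditions. The EGTA course kept near a plateau to 6 h and was lower at 12 and 24 h, while the Cd14-deficient course was highest at 6 h and lowest of the LPS times at 2 h.

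Ccl7, a ligand of CCR2 and CCR1, ranged more widely over the 6 arrays than the other members in EGTA and in wild type cells, while in Cd14-deficient cells Ccl12 ranged more widely. Its log2 level in Cd14-deficient cells was 7.46 without LPS and then 8.77, 9.84, 10.27, 8.77 and 8.49. EGTA cells had 7.73 without LPS and then 10.04, 10.62, 10.55, 8.48 and 8.17. Wild type cells had 8.21 without LPS and then 11.22, 12.41, 12.67, 11.31 and 10.72. Every course peaked at 4 or 6 h and was lower by 12 h, and the lowest wild type LPS array exceeded the highest LPS array of both other conditions.

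Ccl8, which in the mouse acts on CCR8, lay near or below the median gene of most arrays. Its log2 level in Cd14-deficient cells was 5.79 without LPS and then 6.21, 5.65, 6.48, 6.28 and 6.40. EGTA cells had 5.35 without LPS and then 6.32, 6.84, 7.20, 6.81 and 6.43. Wild type cells had 5.65 without LPS and then 6.41, 7.71, 7.77, 7.78 and 7.54. Ccl8 exceeded the median gene of its array on only 5 arrays, the wild type ones from 4 h on and the EGTA one at 6 h. It entered the tests through those arrays, so its passing the filter already favoured a higher wild type level, and it adds no support to counts over the members.

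Ccl12, the mouse-specific CCR2 ligand, followed another course. Its log2 level in Cd14-deficient cells was 8.12 without LPS and then 10.13, 7.16, 6.46, 6.39 and 6.50. EGTA cells had 6.34 without LPS and then 8.30, 8.24, 8.08, 7.70 and 6.98. Wild type cells had 7.38 without LPS and then 9.12, 8.96, 8.90, 8.92 and 7.94. The Cd14-deficient array at 2 h held the highest Ccl12 level of all 18, and the 4 later Cd14-deficient arrays lay below the Cd14-deficient array without LPS. In EGTA and wild type cells every LPS array lay above the array without LPS.

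**Figure D1:**
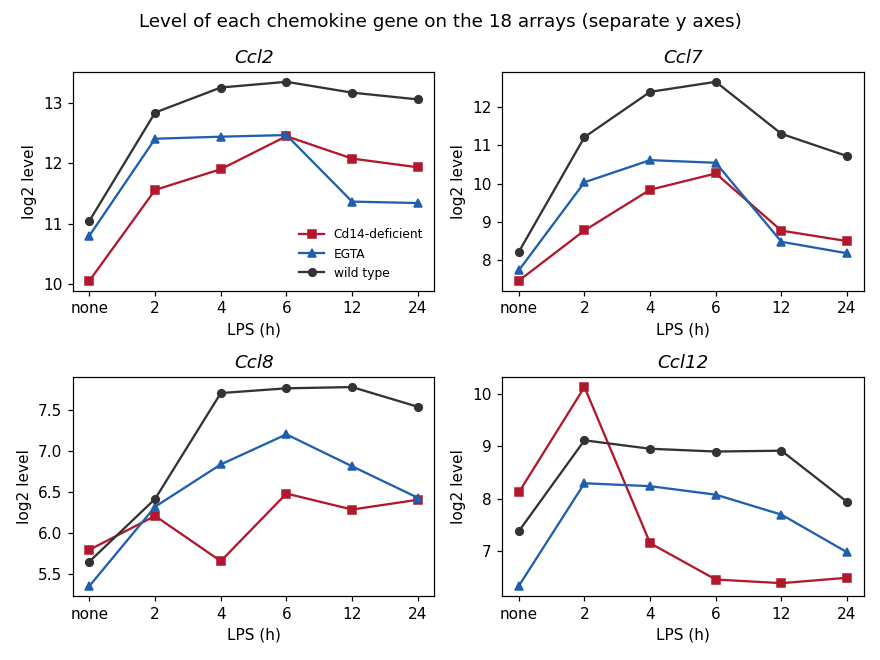
Log2 level (quantile-normalised) of Ccl2, Ccl7, Ccl8 and Ccl12 against hours of LPS, evenly spaced, with 1 point per array and a line per condition. Wild type lies above the other conditions for Ccl2 and Ccl7 at every LPS time, and Ccl12 in Cd14-deficient cells peaks at 10.13 at 2 h and lies at 7.16 or lower afterwards.

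The plot of levels by array puts the 4 courses side by side, each on its own axis, since brightness cannot be compared between probe sets. Promoter sequence was held in the RefSeq table (GRCm38.p6) for 2 of the 4 genes, Ccl8 and Ccl12, from 250 bases before the gene's start to 50 after it. Both are shown because the study asked about NFAT, whose core motif GGAAA is in capitals on either strand. The Ccl12 window is chr11:82101595-82101894 and the Ccl8 window chr11:82114935-82115234, both on the plus strand.
Ccl12: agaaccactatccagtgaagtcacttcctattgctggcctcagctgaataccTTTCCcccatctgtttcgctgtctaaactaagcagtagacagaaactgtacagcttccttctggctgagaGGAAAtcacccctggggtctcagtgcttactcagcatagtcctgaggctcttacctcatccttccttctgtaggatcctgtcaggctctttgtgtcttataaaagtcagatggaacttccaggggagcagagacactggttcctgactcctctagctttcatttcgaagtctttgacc
Ccl8: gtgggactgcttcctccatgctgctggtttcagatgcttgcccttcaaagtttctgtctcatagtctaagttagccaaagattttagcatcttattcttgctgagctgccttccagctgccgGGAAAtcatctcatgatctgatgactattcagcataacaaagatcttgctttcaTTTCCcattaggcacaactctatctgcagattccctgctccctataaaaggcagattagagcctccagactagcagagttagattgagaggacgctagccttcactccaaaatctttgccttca
Each window held 2 matches, at -198 and -128 from the start in Ccl12 and at -128 and -74 in Ccl8, and 61.3% of the 32851 promoter windows in the table held at least 1. The other motifs searched on both strands had no match in either window. They were NF-kB (GGGNNNNNCC, in 50.8% of all windows), the interferon-response element (TTTCNNTTTC, 3.44%), the STAT site GAS (TTCNNNGAA, 8.30%) and AP-1 (TGANTCA, 7.81%). A GGAAA match can lie inside an NF-kB or interferon-response match, which did not occur here, and a match or its absence describes letters in these windows only.

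Ccl2 and Ccl7 were higher with LPS on average over the 5 times, with condition as a block. The test was limma over all 18 arrays, adjusted over 7056 genes at 0.05. In that comparison 62.0% of all genes passed and 27.3% passed as higher, so a pass alone says little about these members. Ccl7 was higher by 2.36 ± 0.27 on the log2 scale (SE, adjusted p = 2.60e-06), which is 5.12-fold. Ccl2 was higher by 1.74 ± 0.20 (adjusted p = 2.95e-06). Ccl8, which entered the test through LPS arrays, was higher by 1.19 ± 0.25 (adjusted p = 0.00065). Ccl12 differed by 0.70 ± 0.47 (adjusted p = 0.21), which did not pass. That mean joins opposite directions, with 1.38 in wild type, 1.52 in EGTA and -0.80 in Cd14-deficient cells. Without the Cd14-deficient array that had no LPS, the mean for Ccl12 was 1.45 and passed (adjusted p = 0.0198). As each array is a bulk sample, more cells making a transcript and more transcript per cell cannot be told apart here or below. Arrays without LPS were harvested 24 h after plating, so only the 24 h contrast matches them in time since plating. At the other times and in the mean, here and below, LPS and time since plating cannot be told apart.

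The time at which a rise first passed varied between the genes, a difference that was not itself tested. At 2 h, when 41.3% of genes passed, Ccl2 (1.63 ± 0.26), Ccl7 (2.21 ± 0.35) and Ccl12 (1.90 ± 0.61, adjusted p = 0.022) had risen. Ccl8 stood at 0.72 ± 0.32 (adjusted p = 0.0866) at that time and passed from 4 h on, at 1.14 ± 0.32 (adjusted p = 0.00638). In Cd14-deficient cells its 4 h array differed from the array without LPS by -0.14. Ccl8 passed at 2 h without the Cd14-deficient array that had no LPS (1.11, adjusted p = 0.0114) or the wild type 2 h array (0.99, adjusted p = 0.0414). The share of all genes that passed was 60.8%, 60.0%, 56.6% and 52.2% at 4, 6, 12 and 24 h, and Ccl2 and Ccl7 passed at each of these times. At 24 h, the contrast matched in time since plating, Ccl2 was higher by 1.47 ± 0.26, Ccl7 by 1.33 ± 0.35 and Ccl8 by 1.19 ± 0.32. Ccl12 passed at no time after 2 h, with 0.84 at 4 h and -0.14 at 24 h. Its 4 h value was 1.59 and passed (adjusted p = 0.0317) without the Cd14-deficient array that had no LPS. Without the Cd14-deficient 2 h array the rise of Ccl12 at 2 h was 1.09 (adjusted p = 0.144), and without the wild type or the EGTA array that had no LPS it was 1.56 or 1.49 (adjusted p = 0.0995 and 0.102). Against its own array without LPS, Ccl7 in wild type cells was 22.0-fold higher at 6 h, and Ccl2 4.92-fold. Ccl8 in wild type cells reached 4.39-fold at 12 h and Ccl12 3.33-fold at 2 h. These fold values rest on single arrays, carry no test and are not matched in time since plating.

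Neighbouring times could be told apart only for Ccl7. Its level at 4 h exceeded that at 2 h by 0.94 ± 0.35 (adjusted p = 0.0459, with 39.3% of genes passing), and the 12 h level fell by 1.64 ± 0.35 relative to 6 h (adjusted p = 0.00818, with 12.4% passing). The earlier of these calls was lost in 9 of 18 refits that each left out 1 array, namely the wild type array at 2, 4 or 6 h, the EGTA array at 4 or 6 h, or the Cd14-deficient array at 2, 6, 12 or 24 h. The lowest of these values was 0.70 (adjusted p = 0.182), without the Cd14-deficient array at 2 h. Without the wild type array at 6 h the later difference was -1.54 (adjusted p = 0.0506). For Ccl2, Ccl8 and Ccl12 no step between consecutive times passed, nor did any of the 4 genes between 4 and 6 h (0.524% of genes passing) or between 12 and 24 h (15.4% passing).

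Under LPS, Ccl2 and Ccl7 were lower in Cd14-deficient than in wild type cells at every time, and Ccl12 was lower from 4 h on but higher at 2 h. Over the 15 LPS arrays, with time as a block, 29.7% of 6929 genes passed and 12.6% passed as lower, and the median difference of all genes was 0.04. The log2 difference of Ccl7 between Cd14-deficient and wild type cells was -2.45 at 2 h and then -2.57, -2.40, -2.54 and -2.23. The gap was thus nearly constant over the day, with a mean of -2.44 ± 0.20 (SE, adjusted p = 3.15e-06), and already stood at -0.75 on the arrays without LPS.

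Ccl2 was lower in Cd14-deficient cells by a similar amount at each time, running through -1.28, -1.35, -0.90, -1.09 and -1.12 in order of time around a mean of -1.15 ± 0.19 (adjusted p = 0.000876). On the arrays without LPS the difference was -0.99, so the gap under LPS was close to the one before it. The gap before LPS rests on 1 array per condition, here and for the other members. The test of the difference in LPS induction gave -0.16 ± 0.47 for Ccl2 (adjusted p = 0.954, 95% interval -1.17 to 0.86). Ccl2 and Ccl7 were the members whose Cd14-deficient and wild type LPS arrays did not overlap, a pattern that 1.50% of genes showed in this direction. Both were lower at all 5 times, as were 14.7% of genes.

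Ccl8 in Cd14-deficient cells differed from wild type by -0.21 at 2 h and by -2.06, -1.29, -1.50 and -1.14 at 4, 6, 12 and 24 h. Its mean difference was -1.24 ± 0.21 (adjusted p = 0.000845), in a test that it entered through wild type and EGTA arrays, and its value without LPS was 0.14 higher. Among Cd14-deficient cells the 5 LPS arrays of Ccl8 differed from the array without LPS by only -0.14 to 0.69, whereas in wild type cells they lay 0.77 to 2.13 above it. The wild type 2 h array overlapped the Cd14-deficient range.

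Ccl12 changed sides within the first hours. Cd14-deficient cells had 1.02 more than wild type cells at 2 h and 0.74 more without LPS, then differed by -1.80, -2.44, -2.53 and -1.45 at 4, 6, 12 and 24 h. The mean was -1.44 ± 0.42 (adjusted p = 0.0196), lower at 4 of 5 times. Without the Cd14-deficient 2 h array it was -2.04 ± 0.16 (adjusted p = 3.46e-06), and the call was lost in 9 of the 20 refits that left out 1 array or 1 time. Those 9 lacked the wild type array at 6 or 12 h, the Cd14-deficient array at 4, 6 or 12 h, or all arrays at 4, 6, 12 or 24 h, and went down to -1.17 (adjusted p = 0.106) without all 12 h arrays. Ccl12 in Cd14-deficient cells stood 4.03-fold above its own array without LPS at 2 h and differed from it by -0.97 to -1.73 on the log2 scale from 4 h on.

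Whether LPS moved a gene less in Cd14-deficient than in wild type cells was tested as an interaction, in which 0.156% of 7056 genes passed and none of the 4 members did. The estimates were -1.68 ± 0.49 for Ccl7 (adjusted p = 0.346), -1.38 ± 0.51 for Ccl8 (adjusted p = 0.477) and -2.18 ± 1.01 for Ccl12 (adjusted p = 0.582). Each rests on 1 array without LPS per condition. When the Cd14-deficient 2 h array was left out, Ccl12 gave -2.78 ± 0.37 and passed (adjusted p = 0.00578).

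**Figure D2:**
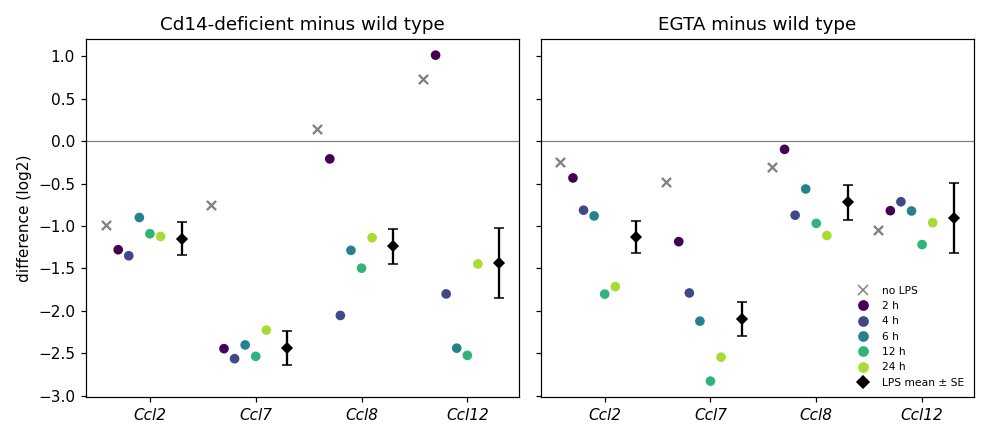
Log2 difference of each gene from wild type at the same time, for Cd14-deficient cells on the left and EGTA cells on the right. Crosses are arrays without LPS, dots are LPS times and diamonds the mean over the LPS times with its SE. Ccl7 has the lowest mean in both panels, and Ccl12 in Cd14-deficient cells at 2 h is the only LPS point above 0.

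The plot of differences also shows wild type cells with EGTA, in which Ccl2 and Ccl7 were lower than in wild type cells without it, whereas Ccl12 did not pass. Over the LPS arrays 13.6% of genes passed in this comparison and 6.22% passed as lower, and the median difference of all genes was 0.01. EGTA and Cd14-deficient cells were set against the same wild type arrays, so the 2 comparisons are not independent.

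Ccl7 in EGTA cells differed from wild type by -1.18, -1.79, -2.12, -2.83 and -2.55 at 2, 4, 6, 12 and 24 h. The mean was -2.09 ± 0.20 (adjusted p = 5.90e-05), a 4.27-fold lower level, against -0.48 without LPS. Ccl2 differed by -0.43, -0.81, -0.88, -1.80 and -1.71, with a mean of -1.13 ± 0.19 (adjusted p = 0.00237) and -0.25 without LPS. For both genes the 5 EGTA and the 5 wild type LPS arrays did not overlap, which 0.953% of genes showed in this direction. The gaps were larger at 12 and 24 h than at any earlier time.

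Ccl8 in EGTA cells differed by -0.10, -0.87, -0.56, -0.97 and -1.11, with a mean of -0.72 ± 0.21 (adjusted p = 0.0347). This call was lost in 13 of 20 refits, those without any 1 EGTA array, any 1 wild type array but the one at 2 h, or all arrays at 4, 6, 12 or 24 h (adjusted p of up to 0.155). It was also lost without both EGTA arrays of lower RIN (-0.54, adjusted p = 0.247) and without the filter on dim genes (-0.72, adjusted p = 0.0642). Ccl12 was lower at all 5 times, with differences of -0.82, -0.71, -0.82, -1.22 and -0.96, as were 13.1% of all genes. Its mean of -0.91 ± 0.42 did not pass (adjusted p = 0.173), and the gap without LPS was -1.04. Its residual spread was 0.66 log2 units in this fit, against 0.30 to 0.32 for the other 3 members. Without the Cd14-deficient 2 h array, which enters the shared estimate of spread, the same mean of -0.91 had an adjusted p of 0.00181.

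The late part of the EGTA course coincides with the arrays of lower RIN. The late (12 and 24 h) minus early (2, 4 and 6 h) EGTA difference was -1.05 ± 0.19 for Ccl2 (adjusted p = 0.0822) and -0.99 ± 0.24 for Ccl7 (adjusted p = 0.141), while limma called 0.00% of genes in this test and 819 had an unadjusted p under 0.05. Ccl8 (-0.53) and Ccl12 (-0.30) did not pass either. Late EGTA arrays and lower RIN cannot be told apart. Without both of those arrays the mean EGTA difference was -0.70 ± 0.11 for Ccl2 (adjusted p = 0.00604) and -1.68 ± 0.15 for Ccl7 (adjusted p = 0.000198). In Cd14-deficient cells the late minus early differences were 0.07 for Ccl2, 0.09 for Ccl7, -0.13 for Ccl8 and -0.91 for Ccl12, and none passed in a test that called 0.0433% of genes. The difference in LPS induction between EGTA and wild type cells, for which 1.66% of genes passed, was -1.61 ± 0.49 for Ccl7 (adjusted p = 0.125), -0.88 for Ccl2, -0.42 for Ccl8 and 0.14 for Ccl12, and none of these passed. Without the EGTA array at 2 h, Ccl7 passed in that test (-1.84, adjusted p = 0.0209). Its baseline is the lone EGTA array without LPS, whose protocol does not name EGTA and which stood apart from the other arrays. The late minus early EGTA difference of Ccl2 passed without the EGTA array at 6 h (-1.21, adjusted p = 0.0278), the Cd14-deficient array at 2 or 6 h, or all arrays at 6 h, and that of Ccl7 without the EGTA array at 6 h (-1.22, adjusted p = 0.0381).

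Set directly against each other, Cd14-deficient and EGTA cells showed no passing difference in any of the 4 genes, although 31.3% of all genes passed. The mean difference was -0.02 ± 0.19 for Ccl2 (95% interval -0.44 to 0.40) and -0.34 ± 0.20 for Ccl7 (-0.77 to 0.09). For Ccl8 it was -0.51 ± 0.21 (-0.96 to -0.07, adjusted p = 0.0738) and for Ccl12 -0.53 ± 0.42 (-1.43 to 0.37). These means hide a change of sign for Ccl2 and Ccl7. Ccl2 differed by -0.85, -0.54, -0.02, 0.71 and 0.59 at 2, 4, 6, 12 and 24 h. Ccl7 differed by -1.26, -0.78, -0.28, 0.29 and 0.32 at the same times. For both, the differences above 0 fell on the EGTA arrays of lower RIN. Ccl12 was higher in Cd14-deficient than in EGTA cells by 1.83 at 2 h and lower at all later times. Without the Cd14-deficient 2 h array it differed by -1.14 ± 0.16 and passed (adjusted p = 0.00027), as did Ccl8 (-0.69, adjusted p = 0.0157). Without both EGTA arrays of lower RIN, Ccl2 (-0.45, adjusted p = 0.0158) and Ccl7 (-0.76, adjusted p = 0.00503) passed as lower in Cd14-deficient cells. Without further scaling, Ccl7 (-0.56, adjusted p = 0.0133) and Ccl8 (-0.64, adjusted p = 0.0224) passed as lower there.

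The sizes of the members' differences were also set against each other, in a design too small for any pair to pass. Relative to wild type, the drop of Ccl7 exceeded that of Ccl2 at all 5 times, by 1.29 ± 0.18 in Cd14-deficient cells and by 0.97 ± 0.19 in EGTA cells on the log2 scale (SD over times, n = 5). It exceeded that of Ccl8 at all 5 times as well (differences of -1.20 and -1.37), and that of Ccl12 at all 5 times in EGTA cells (-1.19). Each of these 5 comparisons had p = 0.0625 in a two-sided exact sign-flip permutation test over the 5 times, the smallest p this design can give, and an adjusted p of 0.15 over the 12 pairs compared. The 5 times of a condition are not replicates, so the SD describes only the spread over the course. The other 7 pairs had p of 0.125 or more in that exact test. Ccl8 was dim, and the 16 added before the log understates changes of dim genes, so its drop cannot be compared evenly with that of Ccl7. On the wild type LPS arrays Ccl2 lay above 98.9% to 99.5% of genes and Ccl7 above 91.6% to 98.5%. Whether the top of the intensity range limited the drop of Ccl2 was not tested.

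The 4 genes lie together on chromosome 11 in the order Ccl2, Ccl7, Ccl11, Ccl12, Ccl8 and Ccl1, by the RefSeq gene table. Ccl11, the eosinophil attractant eotaxin, did not exceed the array median on enough arrays to be tested. Ccl1, a ligand of CCR8, rose with LPS by 3.03 ± 0.39, yet it was higher in Cd14-deficient than in wild type cells, by 0.41, 1.80, 2.12, 1.71 and -0.05 at 2 to 24 h (mean 1.20 ± 0.32, adjusted p = 0.0136). In EGTA cells it differed by -0.28 ± 0.32 (adjusted p = 0.629). In Cd14-deficient cells the mean difference of Ccl1 thus had the opposite sign to those of the 4 members, although at 2 h Ccl1 and Ccl12 were both higher and at 24 h Ccl1 differed by only -0.05.

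**Figure D3:**
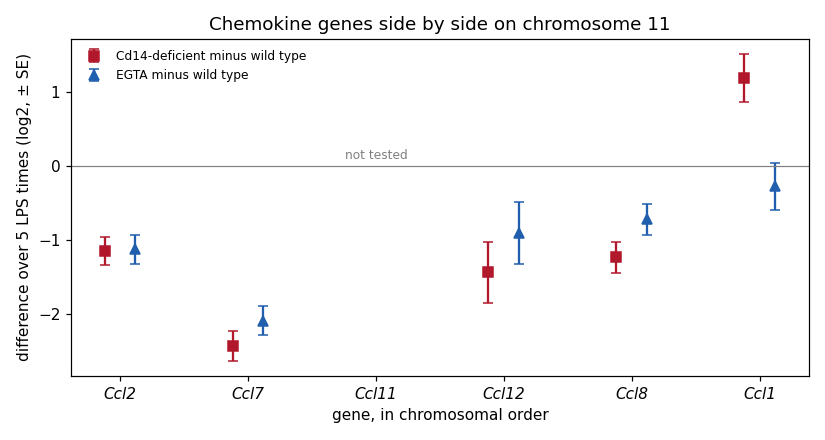
Mean log2 difference from wild type over the 5 LPS times, with its SE, for the chemokine genes in their order on chromosome 11 (evenly spaced, not to scale). Squares are Cd14-deficient and triangles EGTA cells. Ccl2, Ccl7, Ccl12 and Ccl8 lie below 0, Ccl1 lies at 1.20 in Cd14-deficient and -0.28 in EGTA cells, and Ccl11 was not tested.

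The plot by chromosomal order can be set beside the CC chemokines of the same chromosome outside that row. Of 6 tested genes in the list of other cluster chemokines, Ccl1 among them, 1 rose and 2 fell in Cd14-deficient cells and 0 rose and 2 fell in EGTA cells, with medians of -0.11 and -0.21. Of all 6929 genes tested, 1184 rose and 874 fell in Cd14-deficient cells, and 512 rose and 431 fell in EGTA cells. Ccl4, a macrophage inflammatory chemokine, was lower in both, with -0.55 ± 0.09 in Cd14-deficient and -0.79 ± 0.09 in EGTA cells. Ccl3, a ligand of CCR1, fell by 0.63 ± 0.07 in EGTA cells (adjusted p = 0.00016) and differed by -0.19 ± 0.07 in Cd14-deficient cells (adjusted p = 0.0642). Ccl5 fell by 0.15 ± 0.05 in Cd14-deficient cells and stood at -0.03 with EGTA. Ccl6 and Ccl9 passed in neither comparison. They were bright on all arrays, at 13.20 to 13.68 and 13.25 to 13.58, and whether such bright probe sets understate changes was not tested. On the arrays without LPS the EGTA difference was already -0.65 for Ccl3 and -0.45 for Ccl4, with 0.09 for Ccl5. The Cd14-deficient difference there was -0.26 for Ccl5, -0.07 for Ccl4 and 0.16 for Ccl3. Each of these values rests on 1 array per condition, and the EGTA one has a protocol that does not name EGTA.

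Among receptor genes of these chemokines 3 were tested, of which 1 rose and 1 fell in Cd14-deficient cells and 0 rose and 1 fell with EGTA. These are too few to set against the 29.7% and 13.6% of all genes that passed in either direction. Ccr2, the receptor for CCL2, CCL7 and CCL12, fell by 3.95 ± 0.17 under LPS relative to cells without it (adjusted p = 3.87e-11). Its level was 10.91 without LPS and 6.52 at 24 h in Cd14-deficient cells, against 10.12 and 4.94 in wild type cells. Over the LPS times Ccr2 was higher in Cd14-deficient than in wild type cells by 0.83 ± 0.19 (adjusted p = 0.00541), the opposite sign to the mean differences of its ligands, and it differed by 0.18 ± 0.19 in EGTA cells. The Cd14-deficient gap was already 0.79 without LPS, and then 0.28, 0.38, 1.23, 0.68 and 1.59 at 2, 4, 6, 12 and 24 h. From 4 h on Ccr2 lay below the median gene of every array, so the later gaps rest on dim values. Ccr1 differed by -0.57 ± 0.09 in Cd14-deficient and -0.40 ± 0.09 in EGTA cells (adjusted p = 0.000549 and 0.0108). The decoy receptor gene Ackr1 passed in neither comparison.

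Genes of the signalling pathways below TLR4 were counted in the same comparisons, in which 27.3% of all genes passed as higher with LPS, 12.6% as lower in Cd14-deficient cells and 6.22% as lower in EGTA cells. Of 6929 genes, 1184 passed as higher in Cd14-deficient cells and 512 in EGTA cells. Of 12 tested genes of the type I interferon pathway, all 12 rose with LPS, 0 rose and 9 fell in Cd14-deficient cells, and 1 rose and 2 fell in EGTA cells. The medians were -0.53 in Cd14-deficient and -0.03 in EGTA cells, against 0.04 and 0.01 for all genes. Ifnb1, which encodes interferon beta, differed in Cd14-deficient cells by -2.19 at 2 h and -2.06 at 4 h (mean -1.29 ± 0.26, adjusted p = 0.00276) and in EGTA cells by -0.44 and -0.91 (mean -0.43 ± 0.26, adjusted p = 0.31). Irf7 (-1.20 ± 0.18), Usp18 (-0.94 ± 0.19), Stat2 (-0.81 ± 0.11), Socs1 (-0.73 ± 0.09) and Ifnar2 (-0.44 ± 0.08) were lower in Cd14-deficient cells as well. On the arrays without LPS the difference was already -1.64 for Usp18, -0.92 for Irf7, -0.56 for Socs1, -0.36 for Ifnar2 and -0.13 for Stat2, while Ifnb1 stood at 0.11. With EGTA the receptor subunit genes Ifnar1 (-0.40) and Ifnar2 (-0.42) fell and the kinase gene Tyk2 (0.30) rose.

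Of 12 tested NF-kB pathway genes, 12 rose with LPS, 1 rose and 1 fell in Cd14-deficient cells, and 2 rose and 1 fell in EGTA cells, with medians of 0.03 and 0.01 that are close to those of all genes. The 1 gene of 12 that fell in each comparison is near the share of all genes that fell. The subunit gene Relb was higher by 0.26 and 0.30 in these comparisons, and the inhibitor gene Nfkbib was lower, at -0.24 and -0.28. Among 6 tested genes of cytokine mRNA decay, Zfp36l1 (0.73) and Hnrnpd (0.36) rose and the ribonuclease gene Zc3h12a (-0.48) fell in Cd14-deficient cells. In EGTA cells Zfp36l2, which encodes a protein that binds AU-rich mRNA, was 2.01-fold lower (SE 0.12 on the log2 scale), and no gene of that list rose.

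Macrophage markers moved with the Cd14-deficient comparison. The marker counts below stand beside those of all 6929 genes tested. Of these, 1184 rose and 874 fell in Cd14-deficient cells, and 512 rose and 431 fell in EGTA cells. Of 9 macrophage markers tested, 7 fell and 0 rose in Cd14-deficient cells, led by Apoe (-1.65), C1qc (-1.36) and C1qa (-1.07), and 0 fell and 3 rose in EGTA cells. The summed intensity of the 9 was 17769 to 29744 on the Cd14-deficient LPS arrays, 30502 to 34908 on the EGTA and 27777 to 38026 on the wild type ones, and on the arrays without LPS 39689, 39054 and 41903 in that order. All 9 exceeded the array median on every array. Their part in the lower chemokine levels of Cd14-deficient cells was not tested. Dendritic cell markers summed to 5722 to 8324, 6565 to 7380 and 4544 to 7878 on the LPS arrays in the same order, with 6 to 8 of 9 above the median. Of 8 tested, 3 rose and 0 fell in Cd14-deficient cells (Itgax, Kmo and Ciita, by 0.29 to 0.55) and 1 rose and 0 fell in EGTA cells (Ciita, 0.31). Granulocyte markers summed to 14004 to 33689, 10031 to 37418 and 8151 to 36069, and of 9 tested 5 rose and 2 fell in Cd14-deficient cells and 1 rose and 0 fell in EGTA cells. Some mast cell and basophil markers were lower in these comparisons as well. Their summed intensity was 511 to 740, 675 to 863 and 697 to 1096 on the LPS arrays in the same order, and 2 to 3, 1 to 4 and 3 to 4 of the 6 exceeded the median. Of 4 tested, 0 rose and 2 fell in Cd14-deficient cells (Cpa3, -0.47, and Kit, -0.36) and 0 rose and 2 fell in EGTA cells (Cpa3, -0.50, and Mcpt8, -0.68), with medians of -0.34 and -0.38. Their part in the lower chemokine levels was not tested. No T and NK cell or B cell marker exceeded the median on any array, and of 7 stromal and endothelial markers at most 2 did, on EGTA arrays. The 1 tested, Pecam1, fell in Cd14-deficient cells (-0.77) and rose in EGTA cells (0.78).

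Over the 18 arrays the genes whose log2 level ran most like each member were ranked by Pearson's r among 7055 others. The arrays share the LPS course and the 3 conditions, so these values only describe likeness. For Ccl2 the first gene was Ccl7 (r = 0.94), followed by Il33 (0.91), Pmp22, Penk and Armcx3 (0.89). Ccl7 in turn ran most like Fgd6 (0.94), then Ccl2, Asf1a, Stau1 and Nos2 (0.91), the inducible nitric oxide synthase. Ccl8 ran most like Nts (0.89), the neurotensin precursor, then Ppfibp2, Slamf7, Cds2 and Crbn (0.86). Ccl12 had no close partner, with Crybg3 (0.81), Chchd7, Msantd2, Cpq and Rffl (0.76) first. Its r with the other members was 0.38 for Ccl2, 0.51 for Ccl7 and 0.46 for Ccl8, whereas Ccl8 reached 0.81 with Ccl2 and 0.79 with Ccl7.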

How the data were processed

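The deposited table holds 1 linear intensity per probe set and array, which per the submitters' processing notes the authors made with MAS5, a method that summarises each array by itself. The sources used here do not give its version, scaling target or a genome build. Of 22690 probe sets, 20393 named 1 gene in the platform annotation, 691 several and 1606 none. Values were set to log2(value + 16), which understates changes of dim genes, and then quantile-normalised. A gene was read from its brightest probe set and tested if above its array's median gene on at least 2 fitted arrays.

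Tests used limma 3.58.1 in R 4.3.3 (lmFit, eBayes with an intensity trend), with Benjamini-Hochberg adjustment over all tested genes at 0.05. Conditions were compared over the 15 LPS arrays with time as a block (8 residual degrees of freedom), LPS over all 18 with condition as a block (10), and the late and induction terms as interactions (6 and 8). In the induction fit each lone array without LPS is assumed to vary like the LPS arrays. Errors after ± are standard errors unless an SD is named. A named listed gene was among the 6 smallest p of its list in that comparison or belonged to a list of at most 7. The fits were also run on simulated data with independent errors, which does not address the use of times or conditions as replicates. Members, lists and tests were chosen with earlier results of these data known. Other scaling, pseudocounts, filters, blocks and left-out arrays were tried, and the number of arrays limits precision. No 2 arrays held identical values.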

Additional observations from a re-analysis of the deposited data

Results flagged for a closer look

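In 12 groups of the 5 LPS levels of 1 condition and 12 groups of the 5 differences between 2 conditions, 3 of the 24 groups had 1 value far from the other 4, by Dixon's test at the 95% level. The 5 arrays are different times and not repeats, and chance marks about 1 group in 20. Ccl12 in Cd14-deficient cells stood at 10.13 at 2 h, above 6.39 to 7.16 at the other times. Ccl12 in wild type cells stood at 7.94 at 24 h, below 8.90 to 9.12 before. Ccl8 in wild type cells stood at 6.41 at 2 h, below 7.54 to 7.78 afterwards.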

How the results depend on the processing

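Of 1760 refits of the members' values under other settings or without 1 array or time, 1647 kept the direction and the side of the threshold, 52 lost a call, 25 gained one and 36 turned the sign of a value. Without further scaling, the EGTA difference of Ccl8 was -0.64 (adjusted p = 0.0545) and its LPS effect at 4 h 0.74 (adjusted p = 0.055), both lost. Gained there were Cd14-deficient minus EGTA for Ccl7 (-0.56) and Ccl8 (-0.64), late minus early EGTA for Ccl2 (-0.90) and LPS induction in Cd14-deficient cells for Ccl7 (-2.04). The EGTA induction difference of Ccl12 turned to -0.011 there and to -0.043 with a pseudocount of 64, against 0.14. Without the dim-gene filter Ccl8 lost its EGTA call (-0.72), and Ccl7 lost 4 h minus 2 h without that filter or the trend (0.94). Without the time block, calls were lost for Ccl12 in Cd14-deficient cells (-1.44) and for Ccl7 (-2.09) and Ccl8 (-0.72) with EGTA. Without the condition block, Ccl7 lost its calls at 2 h (2.21), 12 h (1.72), 24 h (1.33), 4 h minus 2 h (0.94) and 12 h minus 6 h (-1.64), Ccl12 at 2 h (1.90) and Ccl8 at 4 h (1.14) and 24 h (1.19). Without both EGTA arrays of lower RIN, a choice made after seeing the data, Ccl8 lost its EGTA call (-0.54), and Ccl2 (-0.45) and Ccl7 (-0.76) gained a Cd14-deficient minus EGTA call. The cause of these shifts was not tested.

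Leaving out 1 array or time gave these ranges. Cd14-deficient minus wild type ran from -1.25 to -1.03 for Ccl2 and from -2.55 to -2.32 for Ccl7, with no call lost, and from -2.05 to -1.17 for Ccl12. EGTA minus wild type ran from -0.93 to -0.60 for Ccl8 and from -1.23 to -0.62 for Ccl12, and Cd14-deficient minus EGTA from -1.14 to -0.26 for Ccl12, -0.69 to -0.33 for Ccl8 and -0.20 to 0.19 for Ccl2. Late minus early in EGTA ran from -1.21 to -0.89 for Ccl2, -1.22 to -0.73 for Ccl7 and -0.84 to 0.21 for Ccl12, and in Cd14-deficient cells from -0.051 to 0.25 for Ccl2, -0.066 to 0.24 for Ccl7, -0.57 to 0.35 for Ccl8 and -1.59 to 0.14 for Ccl12. LPS induction ran from -2.78 to -1.92 for Ccl12 in Cd14-deficient cells, and with EGTA from -1.84 to -1.44 for Ccl7 and -0.18 to 0.42 for Ccl12. The LPS effect of Ccl12 ran from 0.29 to 1.45 on average, 1.09 to 2.65 at 2 h, 0.43 to 1.59 at 4 h, -0.020 to 1.14 at 12 h and -0.55 to 0.61 at 24 h, and that of Ccl8 at 2 h from 0.42 to 1.11. Steps ran from 0.70 to 1.26 (4 h minus 2 h) and -1.92 to -1.32 (12 h minus 6 h) for Ccl7, -0.43 to 0.20 (24 h minus 12 h) for Ccl2, and -0.64 to 0.26 (6 h minus 4 h) and -0.71 to 0.38 (12 h minus 6 h) for Ccl12.

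Scaling moved the background. Cd14-deficient minus wild type called 1184 genes higher and 874 lower, against 823 and 1070 with median centring and 301 and 1058 without scaling. For EGTA minus wild type the splits were 512 and 431, 524 and 402, and 469 and 182, and for LPS 1925 and 2448, 2439 and 1514, and 921 and 3707. The median of all genes was 0.04 for Cd14-deficient minus wild type and -0.07 without scaling, and -0.05 for LPS, with 0.09 after median centring and -0.32 without scaling. Counts of called genes moved by over 1.5 times without the time block, to 106 of 2058 (Cd14-deficient), 51 of 943 (EGTA) and 194 of 2166 (Cd14-deficient minus EGTA). The EGTA count was 456 without the arrays of lower RIN and 376 to 1076 with 1 array or time left out. Steps called 2770, 37, 875 and 1087 genes in order of time and 1821, 0, 215 and 349 without the condition block, and the last 3 of these were 12, 528 and 649 with median centring and 2, 445 and 431 without scaling. The late and induction counts were 3 and 11 for Cd14-deficient and 0 and 117 for EGTA cells, and 0 to 66, 3 to 39, 0 to 76 and 53 to 153 with 1 array or time left out, while EGTA induction called 760 genes after median centring, 29 without scaling, 74 with a pseudocount of 64 and 50 without the arrays of lower RIN. No paired analysis was possible by replicate number because the labels give none, and the fits pair arrays by time or condition instead. The induction fit without an array that had no LPS, the late fit without both EGTA arrays of lower RIN, and other probe sets of the members could not be run.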
